A study of Mus musculus with 6 samples.

Results

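The trophectoderm transcription factors are 9 genes, Cdx2, Gata3, Tead4, Tfap2c, Tfap2a, Eomes, Elf5, Hand1 and Id2, taken by symbol from the 46072 genes of each count table, and all 9 were found. Transcripts were counted in 4-cell mouse embryos that had grown from zygotes injected with Son siRNA (3 libraries) and in control embryos (3 libraries). Libraries were prepared by Smart-Seq2, which copies whole mRNAs and does not mark the strand. Son encodes a nuclear speckle protein that acts in pre-mRNA splicing. No source used here gives the control treatment, the strain, the age of the females or the number of embryos in a library. It is therefore not known whether libraries of a group came from separate litters, and p-values measure only the spread between these libraries.

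The trophectoderm is the outer epithelium of the blastocyst and gives rise to the fetal part of the placenta. In outer cells with low Hippo signalling, the coactivators YAP1 and WWTR1 (TAZ) enter the nucleus and bind TEAD4, and this complex drives Cdx2 and Gata3. TFAP2C is already present in cleavage-stage embryos, while EOMES, ELF5 and HAND1 are best known from the later trophoblast and ID2 blocks basic helix-loop-helix proteins. The 4-cell stage lies before this lineage is set apart.

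Hand1 fell in the Son siRNA embryos to 13.8% of its control level and was the only one of the 9 factors past the threshold. Tead4 was at 49.6% and Gata3 at 54.5% of the control mean, with groups that did not overlap, but neither passed edgeR's test (Tead4 passed DESeq2's). Tfap2c, the most abundant of the factors, stood at 83.3% with overlapping groups, and Id2 varied more between the controls than between the groups. Tfap2a and Eomes were near the counting floor, Cdx2 had reads in 1 control library, and Elf5 was listed at 0 in all 6 libraries.

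Promoters of 6 of the 9 factors were matched in RefSeq (build GRCm38.p6, 250 bases before to 50 after the start), and those of Hand1, Tead4 and Tfap2c were not. The promoters of Gata3 and Cdx2, the genes TEAD4 is best known to drive, are shown. Gata3 was detected in all libraries and Cdx2 in 1. Detection did not set them apart, since Id2 and Eomes were also detected in all libraries and their promoters are not shown. Capitals mark matches to the AP-2 motif GCCNNNGGC, which reads the same on both strands and is bound by TFAP2 proteins. The Gata3 promoter is chr2:9878551-9878850 on the minus strand and the Cdx2 promoter is chr5:147307200-147307499 on the minus strand, each printed 5′ to 3′.
Gata3: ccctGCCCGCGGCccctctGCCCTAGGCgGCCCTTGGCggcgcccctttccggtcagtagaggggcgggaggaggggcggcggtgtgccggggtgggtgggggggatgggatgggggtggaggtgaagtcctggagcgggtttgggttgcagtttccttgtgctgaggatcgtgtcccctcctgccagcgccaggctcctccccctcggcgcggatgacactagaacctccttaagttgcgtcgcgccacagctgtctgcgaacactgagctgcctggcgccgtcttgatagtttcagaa
Cdx2: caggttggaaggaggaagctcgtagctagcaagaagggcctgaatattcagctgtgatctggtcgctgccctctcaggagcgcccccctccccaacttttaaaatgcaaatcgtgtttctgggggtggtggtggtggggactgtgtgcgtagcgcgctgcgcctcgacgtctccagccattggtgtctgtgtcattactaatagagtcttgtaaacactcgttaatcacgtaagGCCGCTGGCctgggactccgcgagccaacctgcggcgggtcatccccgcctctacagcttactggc
The Gata3 window held 3 matches and the Cdx2 window 1, none overlapping another. The other matched promoters, those of Elf5, Eomes, Id2 and Tfap2a, held 0, so the 2 shown are those with a match. Over 32851 promoters of the same length, 16.6% held at least 1. The TEAD motif GGAATG, searched on both strands, was found in neither window, against 14.7% of all promoters, and the GATA motif AGATAA in neither, against 11.2%. An Elf5 promoter that is not shown held 1 TEAD match. A match is a description of letters, not a site, and a missing match says only that these letters are not in this window.

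The siRNA libraries held 104634855 to 114892490 count units and the controls 107996833 to 118865650, and mitochondrial genes took 13.2% to 17.5% and 9.79% to 16.0% of them. Son itself (chromosome 16, 91647506 to 91679221, GRCm38) had 41.03, 28.02 and 25.1 CPM in the siRNA libraries, against 249, 322 and 332 CPM in the controls. CPM here are counts relative to each library's size after TMM scaling. All 11 early embryo markers passed the filter, and 0 were called by edgeR, against 0.989% of all tested genes in either direction. At an unadjusted p under 0.05 there were 5, against 14.7% of all tested genes. DESeq2 called 2 lower, Nr5a2 and Pou5f1 (adjusted p = 0.0127 and 0.0368), against 4.63% of all tested genes, and 0 higher. Groups did not overlap for 2 lower markers and 2 higher ones, against 11.6% and 12.1% of all tested genes. The 3 with the smallest p are given. Nr5a2 averaged 65.8 ± 2.49 CPM after siRNA and 117 ± 18.5 CPM in controls (SD, n = 3 each). Pou5f1 averaged 1.01 ± 0.320 CPM after siRNA and 3.55 ± 1.99 CPM in controls, and Tle6 8.88 ± 1.32 CPM after siRNA and 4.75 ± 0.153 CPM in controls. Of the 12 cumulus cell markers, 4 were at 0 throughout (Inha, Inhba, Foxl2 and Fshr), and the list summed to 20.3 to 28.5 CPM after siRNA and 6.57 to 18.7 CPM in controls, most of it Amhr2, with Tnfaip6 and Ptgs2 at group means under 1 CPM. Of 6 oviduct markers, 3 were at 0 (Foxj1, Msln and Krt5), and the list summed to 5.37 to 14.9 CPM after siRNA and 2.77 to 4.06 CPM in controls, with Ovgp1 the largest part after siRNA and Pax8 and Vim at group means under 1 CPM. The 13 matched 2-cell-stage genes summed to 599 to 735 CPM after siRNA and 780 to 1403 CPM in controls, most of it Eif1a. In that list 5 fold changes were below 0 and 8 above, against 48.7% of all tested genes below. Those above included each tested Zscan4 gene. Zscan4d averaged 25.7 ± 3.15 CPM after siRNA and 16.5 ± 3.52 CPM in controls (edgeR adjusted p = 0.340). Groups did not overlap for 2 lower genes and 3 higher ones, against 11.6% and 12.1% of all tested genes. EdgeR called 1 gene, Tdpoz4, against 0.989% of all tested genes in either direction. Tdpoz4 had 18.2, 18.6 and 21.8 CPM after siRNA, against 54.1, 43.3 and 72.4 CPM in controls. The log2 ratio was -1.54 with an SE of 0.28 (edgeR adjusted p = 0.0448). Tdpoz4 belongs to a family of similar copies, so its counts are uncertain. What part these differences have in the results was not tested. Of 5 inner cell mass factors 4 were tested, and 1, Nanog, fell (log2 -2.24, edgeR adjusted p = 0.0402), against 0.899% of all tested genes lower. All 4 fold changes were below 0 under each scaling, against 48.7% of all tested genes, or 34.2% with total-count scaling. Their median was -1.45, against -1.01 for the trophectoderm factors. DESeq2 called 3 lower, against 4.63% of all tested genes. Groups did not overlap, with the siRNA libraries lower, for 3, against 11.6%. The edgeR calls of Nanog and Tdpoz4 were lost without siRNA library 1, 2 or 3, without control 1, and for Tdpoz4 without control 3. Counting all alternative settings, 7 lost the call of Nanog and 8 that of Tdpoz4, among them a fit with the replicate numbers as a block.

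**Figure D1:**
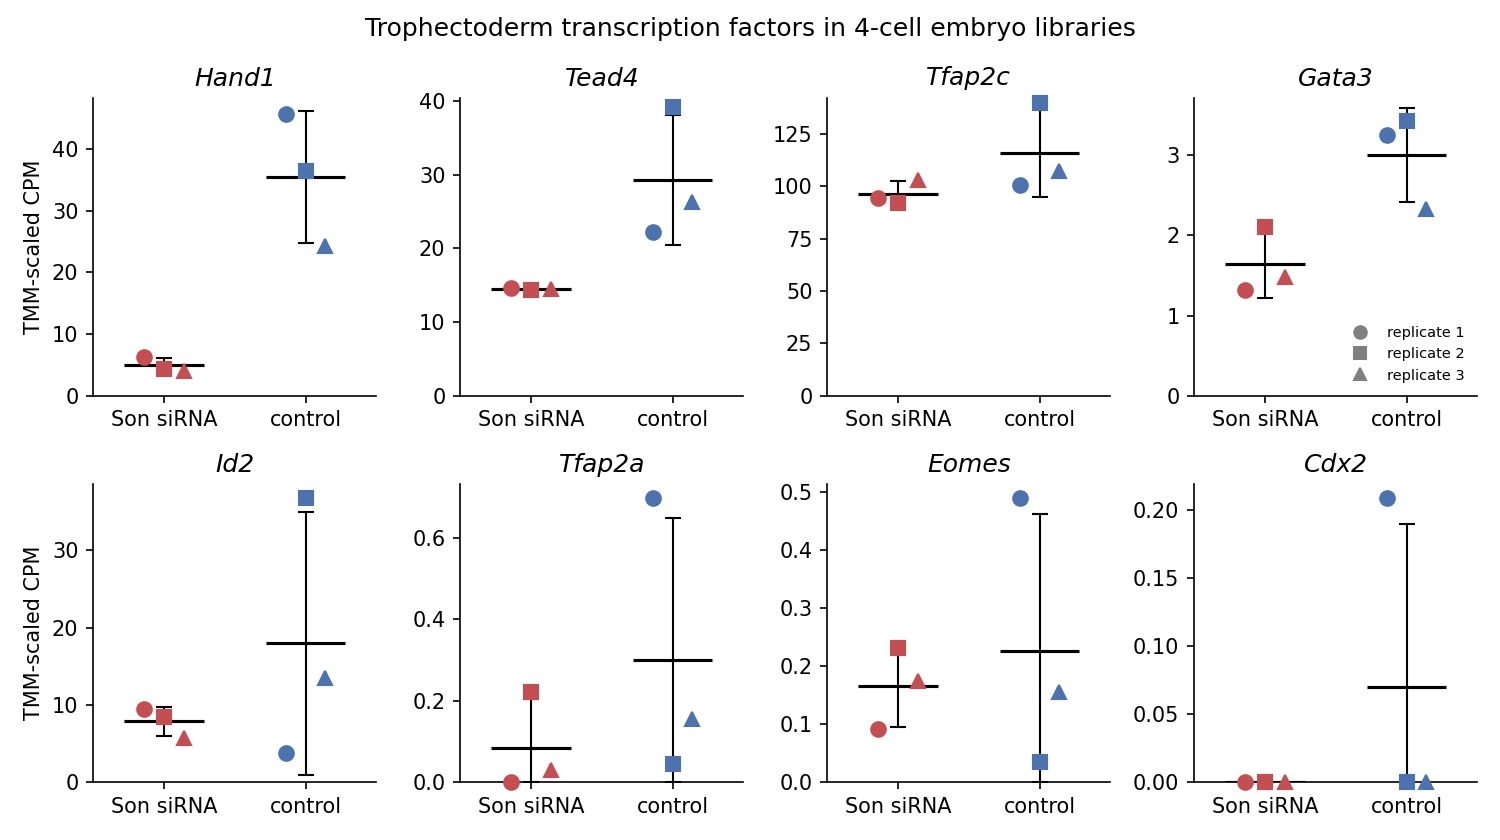
TMM-scaled CPM (linear axes from 0) of 8 factors in each Son siRNA library (red, left) and control library (blue, right), with symbol shapes for replicate numbers, horizontal lines for group means and bars for the SD of 3 libraries, drawn no lower than 0. Hand1, Tead4 and Gata3 have groups that do not overlap, Id2 and Tfap2c overlap, and Cdx2 is above 0 in control 1 alone; Elf5, at 0 throughout, is not drawn.

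The comparison of Son siRNA with control asked which of the factors differed in transcript abundance. Of the 9 factors, 7 passed the filter on low counts and were tested among 17788 genes with edgeR's quasi-likelihood test and Benjamini-Hochberg adjustment. By that test 1 of the 7 was called lower and 0 higher, against a background of 0.899% of all tested genes lower and 0.0899% higher. At an unadjusted p under 0.05 there were 2 lower, Hand1 and Tead4, against 8.86% of all genes, and DESeq2's Wald test called 2 lower, against 4.63% (6.9% in either direction). All 7 fold changes were below 0, against 48.7% of the tested genes, but with total-count scaling Tfap2c was above 0, leaving 6, against 34.2%. The median log2 fold change was -1.01, against 0.024 over all tested genes. Groups did not overlap, with the siRNA libraries lower, for 3 of the 7, against 11.6%. In bulk libraries, fewer cells carrying a transcript and less of it per cell cannot be told apart.

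HAND1 is a basic helix-loop-helix factor of trophoblast giant cells, and its gene (ENSMUSG00000037335, chromosome 11, 57828705 to 57832818, minus strand) has 2 exons. Hand1 had 6.24, 4.40 and 4.07 CPM in the siRNA libraries, against 45.7, 36.5 and 24.3 CPM in the controls. The highest siRNA library was thus well below the lowest control, control 3. The means were 4.90 ± 1.17 CPM after siRNA and 35.5 ± 10.7 CPM in controls (SD, n = 3 each), and the spread relative to the mean was similar, 23.9% and 30.2%. On the log2 scale this was a difference of -2.85 (SE 0.35; edgeR adjusted p = 0.0141), and Hand1 ranked 26 of 17788 genes by p. The exact two-sided permutation test over 20 assignments gave p = 0.1, the smallest that 3 against 3 allows.

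The size of the Hand1 change depended little on any library, but its call depended on the siRNA libraries. Leaving out siRNA library 1 gave a log2 value of -3.06 with edgeR adjusted p = 0.171, leaving out library 2 gave -2.79 with 0.0847, and leaving out library 3 gave -2.73 with 0.149, so each removal ended the call. Without control 1, 2 or 3 it was -2.63, -2.83 or -3.06 and stayed past (edgeR adjusted p = 0.0359, 0.0268 or 0.0276). DESeq2 kept the call with each library left out (adjusted p from 1.5e-16 to 1.8e-08). No exonic base of Hand1 overlaps another annotated gene, and 0 of its 1805 stretches of 100 bases occur in transcripts of other genes. Hand2, the paralog expressed in the heart, was at 0 in all 6 libraries.

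TEAD4 is the DNA-binding partner of YAP1 and WWTR1 and is needed for the trophectoderm, and its gene (chromosome 6, 128224288 to 128300823, minus strand) has 12 exons in its longest transcript. Tead4 had 14.6, 14.4 and 14.5 CPM in the siRNA libraries, against 22.3, 39.2 and 26.3 CPM in the controls. The siRNA libraries had an SD of 0.992% of their mean, while control 2 stood above the other controls. The means were 14.5 ± 0.144 CPM after siRNA and 29.3 ± 8.81 CPM in controls (SD, n = 3 each). The log2 fold change was -1.01 (SE 0.30), and edgeR's adjusted p of 0.151 missed the threshold (unadjusted 0.00796), while DESeq2 called it lower (adjusted p = 0.0177). That DESeq2 call was lost without siRNA library 1, 2 or 3 (adjusted p = 0.130, 0.0784 and 0.134) and held without each control. Without control 2 the fold change was -0.74 (edgeR adjusted p = 0.165), and with total-count scaling -0.76 (adjusted p = 0.363). That scaling raised the median of all tested genes by 0.29 on the log2 scale.

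Within the TEAD family, the share carried by Tead4 is a ratio inside each library and does not depend on the scaling between libraries. Per kilobase of exon, Tead4 made up 53.1%, 62.4% and 58.2% of TEAD transcripts in the siRNA libraries, against 67.0%, 76.6% and 77.0% in the controls. Each siRNA share was below each control share, with means of 57.9 ± 4.67% after siRNA and 73.5 ± 5.69% in controls (SD, n = 3 each), and the exact permutation test, two-sided, gave its smallest p of 0.1. Tead1, a paralog that also binds YAP1, had 47.5, 31.2 and 37.4 CPM after siRNA and 40.5, 44.3 and 28.4 CPM in controls (log2 0.04, SE 0.28), a fold change that was below 0 without siRNA library 1 or without control 3. Tead2 and Tead3 added at most 1.85% and 0.235% in any library. The coactivator genes Yap1 (69.1 ± 11.1 and 63.6 ± 22.2 CPM) and Wwtr1 (69.2 ± 2.42 and 76.8 ± 15.2 CPM) had log2 fold changes of 0.12 and -0.15, each within its SE, and their signs turned under some settings.

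**Figure D2:**
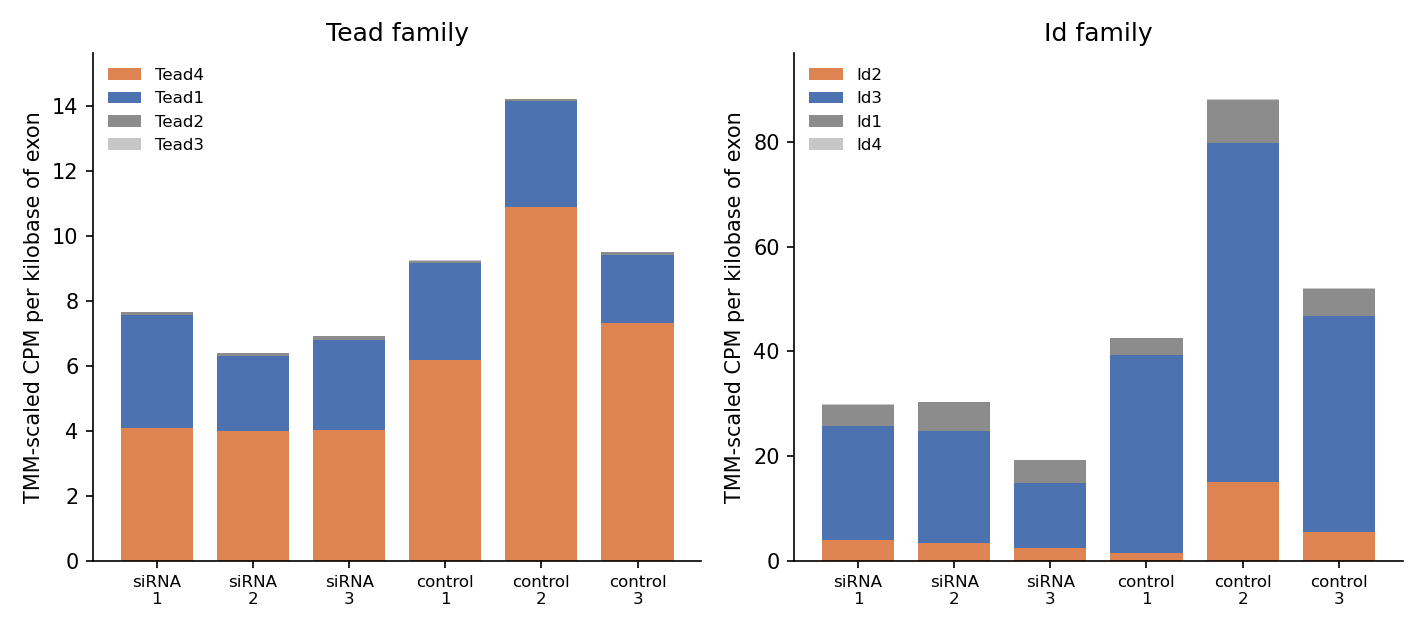
Stacked levels of the 4 TEAD genes (left) and the 4 Id genes (right) in each library, in TMM-scaled CPM per kilobase of exon on linear axes from 0, with the siRNA libraries left of the controls. The Tead4 layer is lower in each siRNA library while the Tead1 layers overlap, and in the Id family the Id3 layer is the tallest in all 6 libraries.

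TFAP2C, an AP-2 factor active from cleavage stages onward, was encoded by the most abundant of the 9 transcripts. Tfap2c (chromosome 2, 172549593 to 172558622, plus strand) had 94.5, 92.2 and 103 CPM in the siRNA libraries, against 101, 140 and 107 CPM in the controls. The highest siRNA library exceeded the lowest control, so the groups overlapped. The log2 ratio was -0.26, close to its SE of 0.22 (edgeR adjusted p = 0.646). It was -0.10 without control 2, and with total-count scaling it was 0.01, so its sign rested on the scaling. Tfap2c carried 97.9% to 99.2% of TFAP2 transcripts per kilobase in every library.

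Its paralog Tfap2a (chromosome 13, 40715302 to 40738376, minus strand), which is better known from the neural crest and epidermis, had 0, 26 and 4 count units in the siRNA libraries, against 67, 5 and 15 units in the controls. Of values from 1 to 40, 26.4% to 32.4% per library were multiples of 4, where chance gives 25%. From this small excess 1 read pair was assumed to be 4 units. On that assumption a floor of 3 pairs is 0.0906 to 0.125 CPM per library. At 0.0841 ± 0.120 CPM after siRNA and 0.299 ± 0.349 CPM in controls (SD, n = 3 each), Tfap2a was at or near that floor in several libraries. Its fitted log2 fold change of -1.82 had an SE of 1.76 (edgeR adjusted p = 0.711) and was -0.24 without control 1 and -4.21 without siRNA library 2. Antisense genes overlap 14.6% of its exonic bases, and without strand their reads cannot be told apart.

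Gata3 encodes a zinc finger factor that acts beside CDX2 in the trophectoderm. Gata3 (chromosome 2, 9857078 to 9890034, minus strand) had 1.32, 2.11 and 1.48 CPM in the siRNA libraries, against 3.26, 3.42 and 2.33 CPM in the controls. The groups were separate but close, with siRNA library 2 just under control 3. The means were 1.64 ± 0.417 CPM after siRNA and 3.003 ± 0.592 CPM in controls (SD, n = 3 each). The log2 ratio of -0.87 had an SE of 0.46 and missed the threshold (edgeR adjusted p = 0.425). A neighbouring protein-coding gene and an antisense gene overlap 5.83% of its exonic bases. Gata4 and Gata1 carried most GATA transcripts per kilobase, and the share of Gata3 was 1.55% to 4.06% after siRNA and 2.24% to 4.31% in controls.

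ID2 dimerises with basic helix-loop-helix proteins and keeps them from DNA, and its gene lies on chromosome 12 (25093799 to 25097140, minus strand). Id2 had 9.42, 8.38 and 5.74 CPM in the siRNA libraries, against 3.69, 36.8 and 13.4 CPM in the controls. Control 1 was below all siRNA libraries and control 2 above them, so the groups overlapped. The log2 ratio was -1.19 with an SE of 0.68 (edgeR adjusted p = 0.472). Without control 2 it was -0.12 (adjusted p = 0.940), and without control 1 it was -1.68 (edgeR adjusted p = 0.178; past with DESeq2, adjusted p = 0.00967). The share of Id2 among Id transcripts per kilobase was 12.1 ± 0.803% after siRNA and 10.4 ± 6.77% in controls (SD, n = 3 each).

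CDX2 is the homeobox factor that marks the trophectoderm, and it was nearly absent at this stage. Cdx2 (chromosome 5, 147300805 to 147307270, minus strand) had 0 units in each siRNA library, against 20, 0 and 0 units in the controls, and did not pass the filter. On the assumption that 1 pair is 4 units, the 0 values allow up to 0.0991, 0.103 and 0.0906 CPM in siRNA libraries 1 to 3. The 0.208 CPM of control 1 rests on about 5 read pairs if 1 pair is 4 units, so no fold was given. Eomes, a T-box factor of trophoblast stem cells (chromosome 9, 118478212 to 118486132, plus strand), had 11, 27 and 23 units in the siRNA libraries, against 47, 4 and 15 units in the controls. Its values overlapped, and its log2 ratio of -0.45 (SE 1.3; edgeR adjusted p = 0.925) was 0.79 without control 1. Elf5, an ETS factor of trophoblast stem cells (chromosome 2, 103411688 to 103450989, plus strand), was at 0 in each library. If 1 pair is 4 units, this allows up to 0.125 CPM where the floor was highest. Counting floors cover counting error only, since Smart-Seq2 reads without molecular identifiers are not independent molecules.

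**Figure D3:**
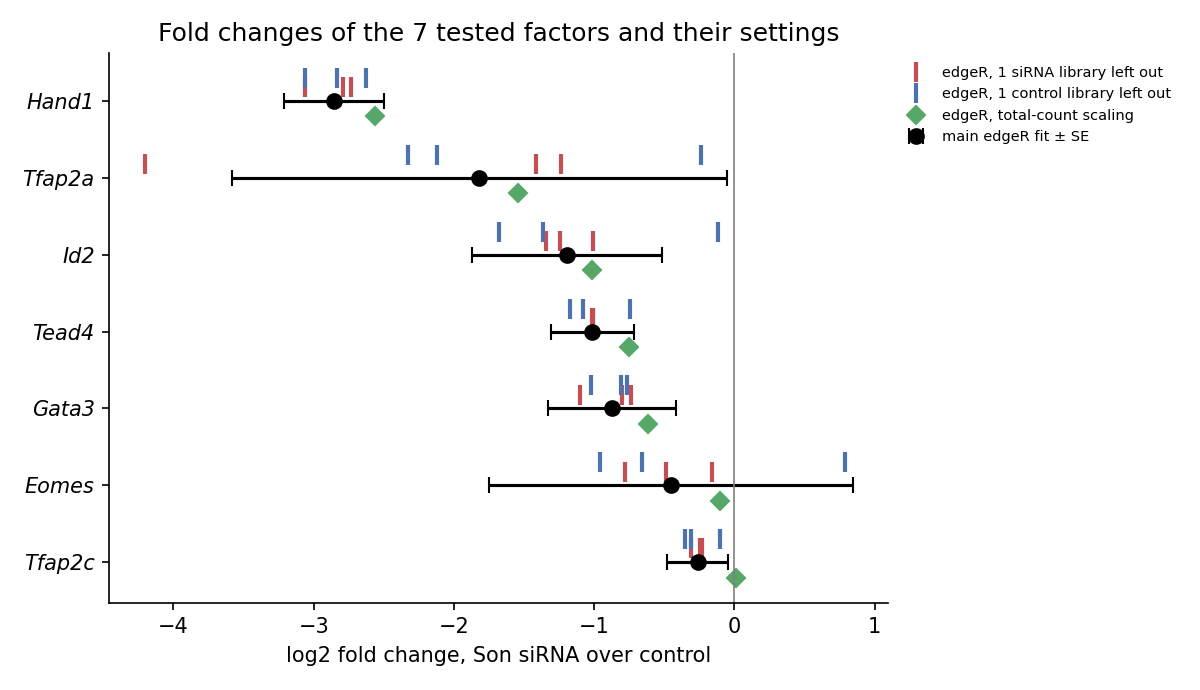
Log2 fold change of Son siRNA over control for the 7 tested factors: black points with bars for the edgeR estimate ± SE, red and blue ticks for fits without 1 siRNA or 1 control library, and green diamonds for total-count scaling. Hand1 stays between -3.06 and -2.57 in these fits, while Id2 and Tfap2a approach 0 without 1 control and Eomes crosses it.

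Set side by side per kilobase of exon, the order of the levels differed between the groups mainly in the place of Hand1. In the siRNA libraries the order was Tfap2c at 26.3 ± 1.57, Tead4 at 4.03 ± 0.040, Id2 at 3.22 ± 0.778, Hand1 at 2.46 ± 0.586 and Gata3 at 0.412 ± 0.105 CPM per kilobase (SD, n = 3). In the controls it was Tfap2c at 31.5 ± 5.70, Hand1 at 17.8 ± 5.37, Tead4 at 8.13 ± 2.45, Id2 at 7.37 ± 6.97 and Gata3 at 0.755 ± 0.149 CPM per kilobase. Id2 and Hand1 after siRNA, and Tead4 and Id2 in controls, did not differ beyond their spread. In both groups Eomes, Tfap2a, Cdx2 and Elf5 averaged at most 0.061 CPM per kilobase.

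Only Tead4, Tfap2c, Hand1 and Id2, with a mean of 5 CPM or more in a group, were compared across the libraries. Over the 6 libraries, Pearson's r of log2 CPM was 0.89 between Tead4 and Tfap2c, 0.86 between Tead4 and Hand1 and 0.78 between Tfap2c and Id2. It was 0.68 between Tead4 and Id2, 0.60 between Tfap2c and Hand1, and lowest between Hand1 and Id2, at 0.27. These values are a description of libraries that differ by group. Among 8253 genes with a mean of 5 CPM or more in a group, the pattern of Hand1 was most like those of Pdlim5 (r = 0.9988), Ap2m1 (0.9958) and 4931409K22Rik (0.9945). Tead4 was most like F11r (r = 0.9983), Gpd2 (0.9974) and Stam (0.9947). Tfap2c was most like Fsbp (r = 0.9879), Noc4l (0.9857) and Itfg3 (0.9841), and Id2 like Tceb3 (0.9868), 2810001G20Rik (0.9780) and Rbbp5 (0.9763). F11r encodes junctional adhesion molecule A and had 46.1, 45.5 and 49.99 CPM in the siRNA libraries, against 89.0, 194 and 110 CPM in the controls (log2 -1.47, SE 0.31, edgeR adjusted p = 0.0658).

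Paralogs of the factors were not called as single genes by edgeR. Of 24, 18 were tested, and 0 passed edgeR's test over all genes, against a background of 0.989% called in either direction. At an unadjusted p under 0.05 there were 2, both lower, against 8.86% of all genes lower. DESeq2 called 2 lower, Gata6 and Id3 (adjusted p = 6.7e-05 and 0.0017), against 4.63% of all genes. DESeq2 kept both calls with each library left out (adjusted p at most 0.00588 for Gata6 and 0.0427 for Id3). The list median was -0.19, and 0.046 with total-count scaling. Gata6, a primitive endoderm factor, had 1.19, 3.26 and 1.38 CPM in the siRNA libraries, against 15.7, 7.65 and 9.29 CPM in the controls (log2 -2.49, SE 0.52, edgeR adjusted p = 0.0656). Id3 had 39.3, 38.3 and 22.4 CPM, against 67.7, 116 and 73.8 CPM in the controls (log2 -1.37, SE 0.32, edgeR adjusted p = 0.0901), and was the most abundant Id gene per kilobase in every library. Elf2, an ETS factor, had 8.61 ± 1.61 CPM after siRNA and 5.49 ± 1.08 CPM in controls (SD, n = 3 each; edgeR adjusted p = 0.432).

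Among 24 upstream regulators of the Hippo, Notch and BMP pathways and early activators, all tested, 2 fell and 0 rose, with a list median of -0.13 (0.17 with total-count scaling). Over all tested genes 0.899% were called lower. At an unadjusted p under 0.05 there were 5 lower and 1 higher, against 8.86% of all genes lower. Klf5, a factor needed for trophectoderm and inner cell mass, had 26.7, 20.1 and 21.6 CPM in the siRNA libraries, against 57.6, 72.1 and 61.0 CPM in the controls (log2 -1.48, SE 0.25, edgeR adjusted p = 0.0378). Amotl2, an angiomotin that holds YAP1 at the membrane, had 5.33, 6.38 and 3.38 CPM, against 16.8, 45.7 and 28.8 CPM in the controls (log2 -2.60, SE 0.44, edgeR adjusted p = 0.0393). For both genes the groups did not overlap. Of 9 protein partners (E proteins that pair with HAND1 or ID2, CITED coactivators and KCTD inhibitors of AP-2 factors, and a GATA cofactor), 8 were tested. EdgeR and DESeq2 called 0, and the list median was -0.00084 (0.28 with total-count scaling). At an unadjusted p under 0.05 there was 1 gene, against 14.7% of all genes in either direction. That gene was Cited1, with 82.4 ± 12.4 CPM after siRNA and 123 ± 26.7 CPM in controls (SD, n = 3 each; log2 ratio -0.57; edgeR adjusted p = 0.312). Kctd1 and Cited4 had log2 fold changes of -2.22 and 1.76, with SE of 1.41 and 1.22, at group means under 1 CPM.

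Of 26 effectors (keratin, junction and transport genes, with others such as Dab2 and Fgfr2), 22 were tested. By edgeR 2 fell, Dab2 and Fgfr2, and 0 rose, against 0.899% of all tested genes lower. No keratin, junction or transport gene of the list was called by edgeR. DESeq2 called 6 lower and 0 higher, against 4.63% of all genes lower. Besides Dab2 and Fgfr2 these were the junction genes Cldn4, F11r and Tjp1 and the transport gene Aqp9 (adjusted p = 0.00015, 0.00035, 0.0074 and 0.0031). Groups did not overlap, with the siRNA libraries lower, for 10 of the 22, against 11.6%. At an unadjusted p under 0.05, 9 were lower, against 8.86% of all genes. Fold changes were below 0 for 17, against 48.7% of all genes, with a median of -0.63. With total-count scaling 14 were below 0, against 34.2% of all genes, with a median of -0.33. Dab2, an endocytic adaptor also known from the primitive endoderm, had 1.49, 1.87 and 2.27 CPM in the siRNA libraries, against 19.1, 11.05 and 7.09 CPM in the controls (log2 -2.72, SE 0.46, edgeR adjusted p = 0.0378). Fgfr2, the FGF receptor of trophectoderm and primitive endoderm, had 8.03, 16.7 and 6.74 CPM, against 88.4, 32.2 and 63.8 CPM in the controls (log2 -2.55, SE 0.48, edgeR adjusted p = 0.0487). The keratin genes Krt8 and Krt18, which mark the mature trophectoderm, had group means below 1 CPM. Without siRNA library 1, 2 or 3, or with total-count scaling, Klf5, Amotl2, Dab2 and Fgfr2 were no longer past, and the same held for Klf5 and Fgfr2 without control 1 or 3, Amotl2 without control 3 and Dab2 without control 1.

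Of 16 genes of the later trophoblast, 11 were tested and 0 passed edgeR's test over all genes, with 3 lower and 2 higher at an unadjusted p under 0.05, against 14.7% of all genes in either direction. Fold changes were below 0 for 6 and above 0 for 5, against 48.7% of all genes below, with a median of -0.84 (-0.44 with total-count scaling). DESeq2 called 2 lower and 1 higher, against 4.63% of all genes lower and 6.9% in either direction. Gcm1, a labyrinth trophoblast factor, had 7.53, 3.84 and 6.53 CPM in the siRNA libraries, against 14.1, 31.0 and 22.4 CPM in the controls (log2 -1.91, SE 0.41, edgeR adjusted p = 0.070). Ascl2, a spongiotrophoblast factor, was on the other side, with 3.50, 4.36 and 6.55 CPM after siRNA and 1.44, 1.29 and 1.15 CPM in controls (log2 1.89, SE 0.44, edgeR adjusted p = 0.0888). Sox21, a SOX factor of early embryos, had 2.79 ± 1.07 CPM after siRNA and 9.89 ± 5.61 CPM in controls (SD, n = 3 each, edgeR adjusted p = 0.142). Sox21 is among the 3 lower at an unadjusted p under 0.05 and the 2 that DESeq2 called lower. These counts are therefore not of later trophoblast genes alone. Prl3d1 and Tpbpa, markers of differentiated giant cells and spongiotrophoblast, were at 0 in all 6 libraries, and were the only 2 of the list at 0 throughout. Prl3b1, of the same list, averaged 19.4 ± 6.59 CPM after siRNA and 37.1 ± 12.4 CPM in controls (SD, n = 3 each). Its groups overlapped (log2 -0.94, SE 0.37, edgeR adjusted p = 0.282), and it is among the 3 lower at an unadjusted p under 0.05. The values at 0 therefore hold for Prl3d1 and Tpbpa, not for the list.

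**Figure D4:**
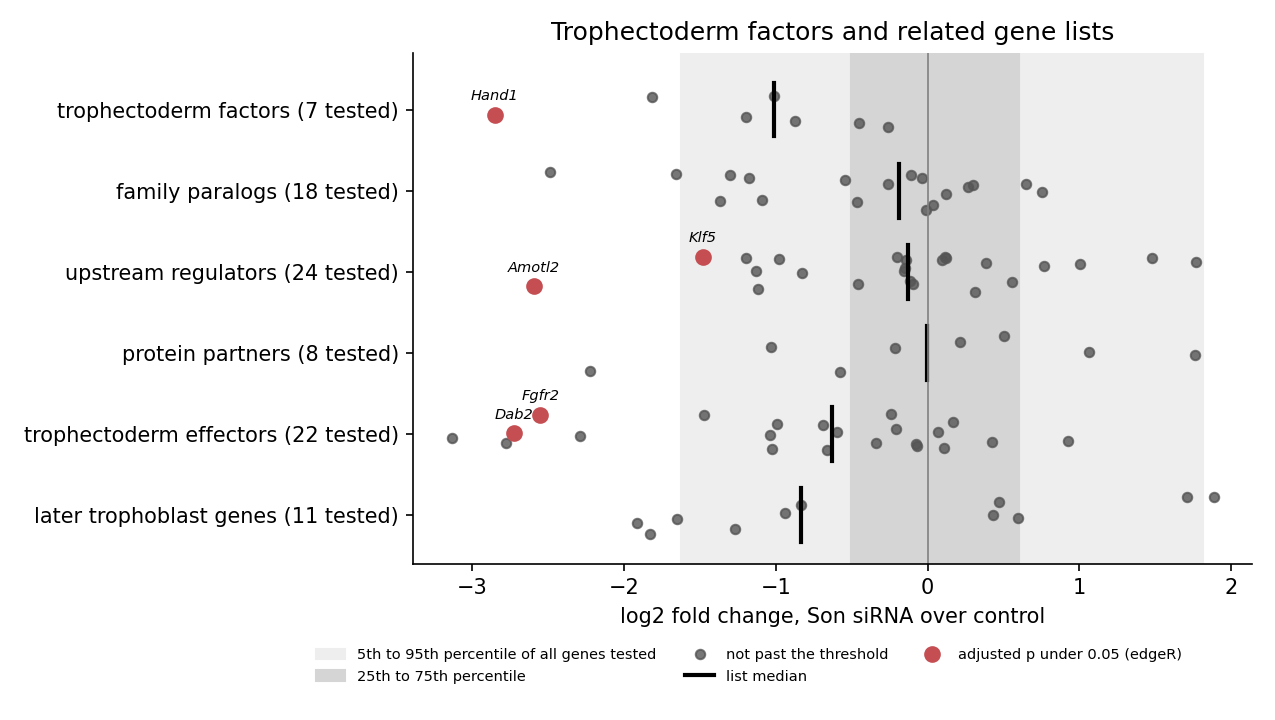
Log2 fold change of Son siRNA over control for each tested gene of the trophectoderm factors and 5 related lists (points, red and named where edgeR's adjusted p was under 0.05), with black lines for list medians and grey bands for the percentiles of all 17788 genes. The factors have a median of -1.01, paralogs -0.19, upstream regulators -0.13, effectors -0.63 and later trophoblast genes -0.84.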

How the data were processed

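Gene expression was measured in 3 Son siRNA and 3 control libraries of 4-cell mouse embryos, grouped by title and prepared by Smart-Seq2, per the labels' protocols. The processing notes of the submitters name HISAT2 2.0.5, StringTie 1.3.3b and GRCm38. No source used here gives the annotation release or filters. The authors deposited whole-number estimated counts per gene, not normalized. Of values from 1 to 40, 26.4% to 32.4% were multiples of 4, where chance gives 25%. A worth of 4 units per read pair was assumed from this small excess, although most such values were not multiples of 4.

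Genes kept by filterByExpr were tested with edgeR 4.0.16 (R 4.3.3; TMM, glmQLFit, glmQLFTest, no block), with Benjamini-Hochberg adjustment over 17788 genes and a threshold of 0.05. The SE is the fold change divided by the root of the F statistic. Levels per kilobase use the union of exons in GENCODE vM21 (GRCm38), which matched 45137 of 46072 genes. The test was checked on simulated counts. Alternatives were DESeq2 1.42.0 (Wald test), its size factors, total counts, no filter, 50 units in 3 libraries, no mitochondrial genes, a replicate block and leaving out each library; counts divided by 4, and DESeq2 without each library, were added after seeing the data.

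The factors and lists were chosen with earlier results of these data known. Named are all 9 factors and the 3 genes most alike. Each list gives the genes past the threshold, or else up to 3 with the smallest p. Chosen after their values were seen were Yap1, Wwtr1, Tead1, Hand2, Prl3b1, Prl3d1, Tpbpa, Eif1a and Zscan4 genes. The same holds for keratin genes, markers at 0 and effectors called by DESeq2 alone.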

Additional observations from a re-analysis of the deposited data

How the results depend on the processing

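Depth limits Tfap2a, Eomes, Cdx2 and Elf5, which were at or near the assumed floor of 3 read pairs in several libraries. Hand1 kept its direction under all settings and lost its call with the replicate block (log2 -2.83, edgeR adjusted p = 0.0617) and without each siRNA library; its log2 fold change without 1 library ranged from -3.06 to -2.63 with edgeR and from -3.07 to -2.65 with DESeq2. Labels give both groups the numbers 1 to 3, but deviations of same-numbered libraries correlated at -0.30, -0.33 and 0.051, so the numbers were not taken as pairs; the block left 0 genes lower and 0 higher over all genes (1110 and 887 at an unadjusted p under 0.05), 0 of the factors, 0 upstream regulators and 0 effectors, with Son at -3.29 (adjusted p = 0.0617).

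Called lower over all genes were 35 with total counts, 91 with no filter, 245 with 50 units in 3 libraries, 823 with DESeq2 and 279 with counts divided by 4, against 160; called higher were 7, 9, 43, 405 and 51, against 16. Without 1 library the range was 0 to 231 lower and 0 to 84 higher with edgeR (0 without any 1 siRNA library, where at least 1075 lower and 658 higher had an unadjusted p under 0.05), and 491 to 1287 lower and 97 to 1197 higher with DESeq2 (492, 778 and 491 lower and 133, 231 and 97 higher without siRNA library 1, 2 and 3; 717, 1287 and 954 lower and 549, 1197 and 821 higher without control 1, 2 and 3). Factors called lower were 2 with DESeq2, 0 to 1 with edgeR and 1 to 3 with DESeq2 without 1 library; 0 were higher in any fit. DESeq2 called 2 of 18 tested paralogs, 5 of 24 upstream regulators, 6 of 22 effectors and 3 of 11 later trophoblast genes. Over all tested genes DESeq2 called 6.9% in either direction. Total counts left 0 upstream regulators and 0 effectors, and no filter left 1 effector. The stricter filter called 1 paralog and 1 later trophoblast gene, and counts divided by 4 called 1 paralog, 4 effectors and 1 later trophoblast gene. Without 1 library edgeR called 0 paralogs, 0 to 2 upstream regulators, 0 to 2 effectors and 0 later trophoblast genes, and DESeq2 2, 3 to 8, 5 to 8 and 1 to 5. Son ranged from -3.50 to -3.12 with edgeR and from -3.51 to -3.14 with DESeq2; edgeR's call was lost without each siRNA library (adjusted p from 0.0648 to 0.136).

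Signs turned for Tfap2c with total counts (0.0102), for Eomes with the block (0.12) and without control 1 (0.79, DESeq2 0.76), for Tead1 without siRNA library 1 (-0.13, DESeq2 -0.14) and without control 3 (-0.13 in both), for Yap1 without control 1 (-0.074, DESeq2 -0.089) and with DESeq2 without siRNA library 3 (-0.0098), for Wwtr1 with total counts (0.12) and without control 2 (0.017), for Ptgs2 without siRNA library 2 (-0.92, DESeq2 -0.94), and for Vim with the block (0.85) and without control 1 (1.91, DESeq2 1.93). Without 1 library the edgeR ranges were -0.96 to 0.79 for Eomes, -0.13 to 0.17 for Tead1, -0.074 to 0.43 for Yap1, -0.92 to 2.13 for Ptgs2, -1.69 to 1.91 for Vim and -0.27 to 0.017 for Wwtr1. Tfap2a and Eomes did not pass the stricter filter or the filter on counts divided by 4, so no value could be fitted. The causes were not tested.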
